A study of Mus musculus with 2 samples.

Results

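CD8 T cells of the mouse kidney cortex were read from 1 single-cell library of a PT I-PpoI mouse and 1 library of a wild-type mouse, both 16 weeks old. I-PpoI, a homing endonuclease, cuts both strands of DNA, and the series title places its expression in the epithelial cells of the proximal tubule (PT), the nephron segment that reabsorbs most of the filtrate. The T cells described here are not the cells named as carrying the enzyme. The promoter that drives the enzyme, the strain, the sex and the number of animals behind each library are not given in the sources used here, and no feature of the count tables names I-PpoI or Cre, so the transgene itself was not read. The cortex was minced, digested with collagenase and protease and loaded on droplets, in which each captured RNA molecule is counted once by its unique molecular identifier (UMI).

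A barcode was kept as a cell when it held 1000 or more UMIs, 200 or more genes and up to 50% mitochondrial UMIs. A CD8 T cell had 2 or more UMIs of the CD3 genes Cd3d, Cd3e and Cd3g together, 1 or more UMI of Cd8a and Cd8b1 together, and none of Cd4, Ncr1 (NK cells), Cd79a (B cells) and C1qa (macrophages). This gave 50 CD8 T cells among 5076 kept barcodes of the PT I-PpoI library and 147 among 10412 of the wild-type library, 197 of 15488 in all. Because each group is a single library, no difference has a replicate check or a test. Genotype, animal and library preparation cannot be told apart. Every interval below is a 95% interval. Those of list medians describe the spread among the genes of a list, and all others cover counting error alone.

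CD8 T cells recognise peptides on MHC class I molecules through a T cell receptor with the CD3 chains and the CD8 co-receptor. Once primed they kill target cells with perforin and granzymes, secrete interferon gamma and chemokines, and can stay in tissues such as kidney as resident memory cells. Resting, naive-type cells instead carry lymph node homing receptors, cycling cells express DNA replication genes, and many effector CD8 T cells also take up receptors first described on NK cells.

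The cells were chosen by the UMIs of these genes, so their values are a description. Cd8a had 144 UMIs in PT I-PpoI CD8 T cells (412 CPM, UMIs per 1000000 UMIs summed over the cells) and 203 UMIs (339 CPM) in wild-type ones, and Cd8b1 had 203 UMIs (581 CPM) and 273 UMIs (456 CPM). Both chains were read in 39 of 50 PT I-PpoI and 78 of 147 wild-type cells, Cd8a alone in 4 and 28, and Cd8b1 alone in 7 and 41. Among cells with 4 or more Cd8 UMIs both chains were read in 33 of 36 and 45 of 51. Just inside the rule, 1 PT I-PpoI and 6 wild-type cells had exactly 2 CD3 UMIs, and 3 and 35 had exactly 1 Cd8 UMI. Just outside it, 2 and 3 barcodes with Cd8 UMIs had 1 CD3 UMI, and 61 and 239 further T cells had no Cd8 UMI. Genes outside the rule were also those of T cells: the T cell receptor constant genes Trac, Trbc1 or Trbc2 were read in 50 of 50 and 145 of 147 cells, and Trac stood at 326 CPM in PT I-PpoI and 334 CPM in wild-type cells.

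CD8 T cells made up 0.985% (0.732 to 1.30) of the kept PT I-PpoI barcodes and 1.41% (1.19 to 1.66) of the kept wild-type barcodes. As a share of the T cells, they were 39.1% (30.6 to 48.1) of 128 PT I-PpoI T cells and 34.9% (30.4 to 39.7) of 421 wild-type T cells, with overlapping intervals. Among barcodes with a UMI of the pan-leukocyte gene Ptprc, 49 of 813 in PT I-PpoI cortex (6.03%, 4.49 to 7.89) and 125 of 1338 in wild-type cortex (9.34%, 7.84 to 11) were CD8 T cells. The order of the libraries thus depended on the denominator, and each share also reflects which barcodes passed the depth filter.

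The libraries differed in depth and in estimated free RNA, and both bear on the values that follow. PT I-PpoI CD8 T cells had a median of 5498 UMIs (1779 to 25207) and 1672 genes, and wild-type ones 2842 UMIs (1248 to 28068) and 1065 genes. Free RNA was estimated as the median share of tubule list UMIs in the cells, divided by that share in barcodes of 10 to 100 UMIs. This takes all tubule UMIs of the median cell as free RNA. The estimate was 3.68% of the UMIs of PT I-PpoI and 13.1% of those of wild-type CD8 T cells. Proximal tubule genes summed to 647 CPM in PT I-PpoI and 11118 CPM in wild-type CD8 T cells, with Kap, an androgen-regulated proximal tubule gene, read in 4 of 50 and 143 of 147 cells. The loop, distal tubule and collecting duct list went the other way, at 3561 and 2704 CPM, and at 1345 and 432 CPM without the mixed cells defined below. Umod, a loop gene, was read in 32% of PT I-PpoI and 9.52% of wild-type CD8 T cells after random thinning to 1000 UMIs. Kap was also rare in PT I-PpoI nephron cells thinned alike, in 51 of 2204. Some CD8 barcodes carried more epithelial or vessel RNA than the rest: 4 of 50 PT I-PpoI and 42 of 147 wild-type cells had over 1% of their UMIs from the tubule lists or 10 or more UMIs from the endothelium and mural lists, and these mixed cells held 21.3% and 50.5% of all CD8 UMIs. Endothelial genes summed to 647 CPM and 1778 CPM, and mural, fibroblast and podocyte genes to 65.8 CPM and 334 CPM. Without the mixed cells those sums were 80.0 and 108 CPM for endothelium and 29.1 and 13.5 CPM for the mural list. The macrophage and monocyte list summed to 266 UMIs in PT I-PpoI and 319 UMIs in wild-type CD8 T cells (761 and 532 CPM, in 34 of 50 and 68 of 147 cells), mostly from Plac8 with 105 and 75, Apoe with 82 and 136 and Ly6c1 with 67 and 92. The dendritic cell list summed to 81 and 150 UMIs, led by Bst2 with 41 and 60, and the B and plasma cell list to 77 and 55, led by Ighm with 26 and 25 and Igkc with 32 and 9. Of the defining markers in these lists, Adgre1, Fcgr1, Ms4a1, Xcr1, Clec9a and Siglech were at 0 UMIs in both libraries, while Csf1r had 1 and 0, C1qb 1 and 3, and Cd79b 0 and 3. The part of this RNA in the results below was not tested. Values without the mixed cells, a choice made after seeing the data, are given beside the lists and several of the genes below. Scrublet marked 9 of the 147 wild-type CD8 T cells as doublets and none of the 50 PT I-PpoI ones, but it marked only 0.0394% of all PT I-PpoI barcodes and so had not worked there. Of 19 kept barcodes found in both libraries, 0 were CD8 T cells.

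**Figure D1:**
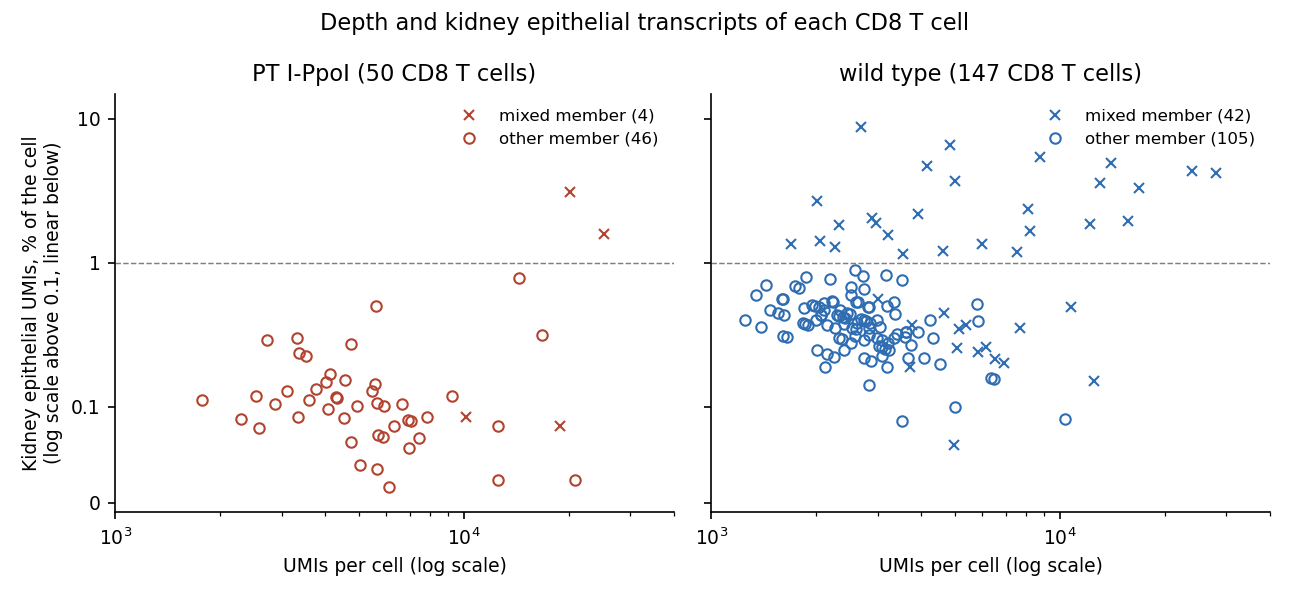
Each point is 1 CD8 T cell, with PT I-PpoI left of wild type; the axes give UMIs per cell on a log scale and the percent of its UMIs from the tubule lists. The PT I-PpoI cells sit at a median of 5498 UMIs and 0.105% tubule UMIs, and the wild-type cells at 2842 UMIs and 0.408%, with the highest at 3.1% and 8.79%.

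Across the transcriptome of the CD8 T cells, 5267 genes had 20 or more UMIs over both libraries together. Of these, 383 (7.27%) were 2-fold or more higher in PT I-PpoI and 398 (7.56%) were 2-fold or more lower, and the median log2 ratio of PT I-PpoI over wild type was 0.13 over the 7905 genes with 10 or more UMIs in both libraries together, the limit used for the gene lists. In that wider set 9.87% were 2-fold or more higher and 10.2% 2-fold or more lower. A higher value of any size was found for 4534 of the 7905 genes (57.4%). The counts per list below should be read against these shares. Without the mixed cells, 11.3% of 5363 genes were 2-fold or more higher and 5.72% 2-fold or more lower, and 3197 had a higher value of any size. Of the 12 genes with the largest ratios of PT I-PpoI over wild type, 9 were genes of tubule or endothelium or had most of their UMIs in 1 cell. Umod, the loop of Henle glycoprotein, had 461 UMIs of which 332 lay in 1 PT I-PpoI cell, and Fabp5, a fatty acid carrier, had 143 of its 162 UMIs in 1 cell. Mgp, a matrix calcification inhibitor, had 2 UMIs in PT I-PpoI cells and 755 in wild-type cells, 752 of them in 1 wild-type cell. The other 3 genes of the 12 were Hspa1a, Hspa1b and Capg, and they were also among the 12 highest without mixed cells.

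The inducible 70 kDa heat shock genes were the clearest difference among T cell transcripts. Hspa1a had 247 UMIs in PT I-PpoI CD8 T cells (707 CPM) and 23 UMIs in wild-type ones (38.4 CPM), a log2 ratio of 4.17 (3.58 to 4.89). Hspa1b had 199 UMIs (570 CPM) and 26 UMIs (43.4 CPM), a log2 ratio of 3.69 (3.12 to 4.36). Both encode stress-induced HSP70, the chaperone that refolds damaged proteins. The genes are near-identical neighbours and lie on the minus strand of chromosome 17 at chr17:34969190-34972156 (Hspa1a) and chr17:34956436-34959238 (Hspa1b) in mm10, so how reads were divided between them is uncertain. Their sum, which does not rest on that division, was 446 UMIs (1277 CPM) in PT I-PpoI and 49 UMIs (81.8 CPM) in wild-type CD8 T cells, a 15.5-fold ratio (log2 3.95, 3.54 to 4.42), and was read in 38 of 50 and 21 of 147 cells. Without mixed cells the sum was 361 UMIs in 34 of 46 PT I-PpoI cells and 11 UMIs in 6 of 105 wild-type cells (log2 5.08, 4.29 to 6.16).

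The start regions of this pair are shown because both genes were higher together and because they show how alike the copies are. The sequences are those of RefSeq on GRCm38.p6, minus strand, from 250 bases before to 50 bases after the annotated start, at chr17:34972107-34972406 for Hspa1a and chr17:34959189-34959488 for Hspa1b. Capitals mark the match to GAANNTTC, an inverted pair of the GAA units that heat shock factors bind.
Hspa1a: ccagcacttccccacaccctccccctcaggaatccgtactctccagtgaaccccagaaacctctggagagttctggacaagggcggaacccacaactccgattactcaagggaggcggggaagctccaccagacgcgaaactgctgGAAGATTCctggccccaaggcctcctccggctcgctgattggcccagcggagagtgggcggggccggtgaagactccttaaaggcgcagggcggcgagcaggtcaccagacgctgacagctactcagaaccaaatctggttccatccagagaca
Hspa1b: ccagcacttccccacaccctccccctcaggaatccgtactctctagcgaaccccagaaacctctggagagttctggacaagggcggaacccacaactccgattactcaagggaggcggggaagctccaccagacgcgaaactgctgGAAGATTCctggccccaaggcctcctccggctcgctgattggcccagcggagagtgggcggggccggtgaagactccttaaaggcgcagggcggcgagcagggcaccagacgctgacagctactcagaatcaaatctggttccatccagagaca
They were the same at 296 of 300 bases and differed at 4. Each held 1 match, searched on both strands (the motif is its own reverse complement), starting 104 bases before the start site. The same letters occurred in 2582 of 32851 RefSeq promoters of this length (7.86%), so the match only describes these windows.

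Other chaperones were higher as well, by less. Dnajb1, the HSP40 partner that hands clients to HSP70, stood at 283 CPM in PT I-PpoI (38 of 50 cells) and 80.1 CPM in wild-type CD8 T cells (30 of 147), a log2 ratio of 1.81 (1.31 to 2.35) that was 1.82 without mixed cells. Hspa8, the constitutive HSP70, was at 2041 CPM and 1112 CPM (log2 0.88, 0.72 to 1.03). Of 18 heat shock chaperones measured, 16 had higher values in PT I-PpoI and 4 of them 2-fold or more, with none 2-fold lower, and the list median was 0.59 (0.23 to 0.88), or 0.75 without mixed cells. The cells overlapped: chaperone UMIs were a median 0.916% of a PT I-PpoI cell (0.392% to 2.42%) and 0.537% of a wild-type cell (0.135% to 1.53%). Other cells differed for the HSP70 pair as well: the Hspa1a and Hspa1b sum stood at 1988 CPM in PT I-PpoI and 158.5 CPM in wild-type CD8-negative T cells, and in nephron cells Hspa1a was at 334 CPM and 39.1 CPM. Dnajb1 had a log2 ratio of 1.90 in CD8-negative T cells but of 0.28 in nephron cells, at 35.6 CPM in PT I-PpoI and 29.2 CPM in wild type. Genotype and tissue preparation cannot be told apart for these genes either. Subtracting free RNA left the Hspa1a ratio at 4.23.

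**Figure D2:**
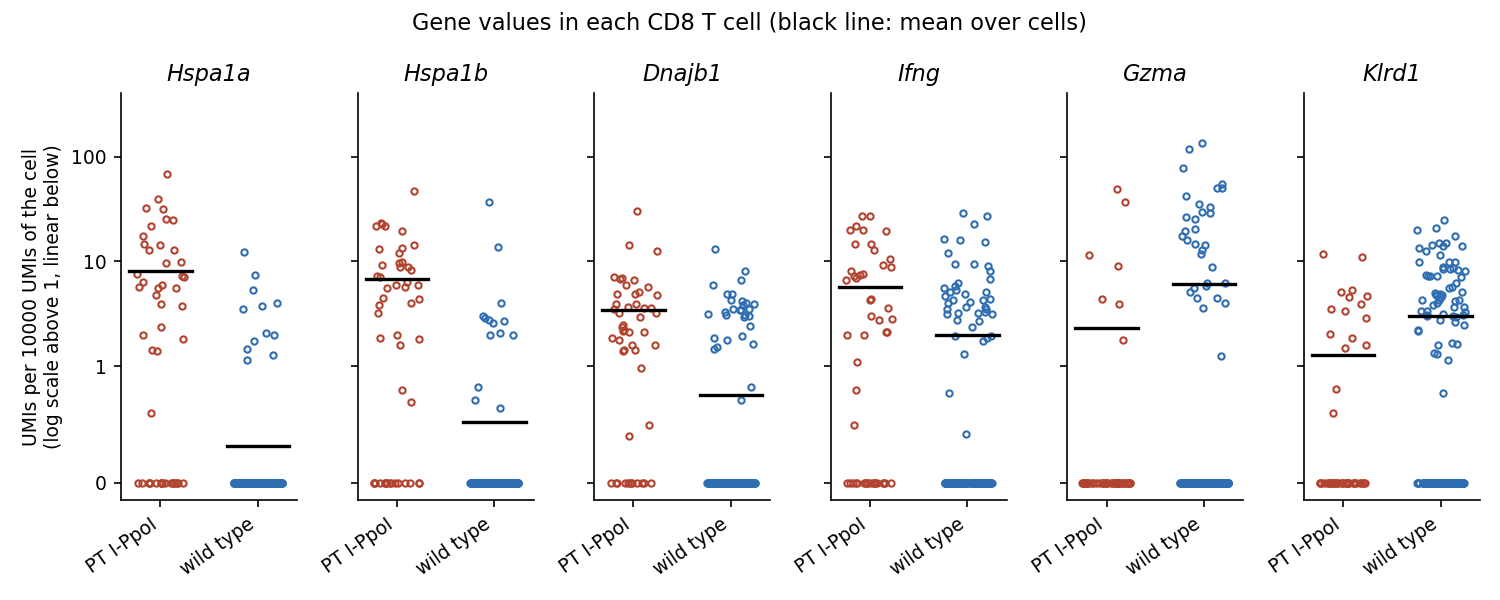
Values of selected genes in each CD8 T cell as UMIs relative to all UMIs of that cell, PT I-PpoI left of wild type, with 1 point per cell. Hspa1a and Hspa1b were read in 31 and 34 of 50 PT I-PpoI cells and in 12 and 14 of 147 wild-type cells, while Gzma was read in 7 and 32 cells.

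Cytotoxic genes had values on both sides of 0, and individual granzymes differed in opposite directions. Of 22 cytotoxic effector genes measured, 11 had higher and 11 had lower values in PT I-PpoI CD8 T cells, 1 was 2-fold or more higher and 6 were 2-fold or more lower, and the list median was -0.20 (-1.04 to 0.53), or 0.32 with cells thinned to 1000 UMIs. Without mixed cells 9 of 21 had higher and 12 lower values, none 2-fold or more higher and 8 2-fold or more lower, and the median was -0.18. Gzmb, the granzyme that activates caspases in target cells, had 107 UMIs in 26 of 50 PT I-PpoI cells (306 CPM) and 98 UMIs in 33 of 147 wild-type cells (164 CPM), a log2 ratio of 0.90 (0.50 to 1.31). Gzmk, the granzyme of memory-type effector cells, was level at 146 CPM in PT I-PpoI and 142 CPM in wild type (log2 0.05, -0.49 to 0.56). Gzma, a tryptase-type granzyme, had 35 UMIs in 7 of 50 PT I-PpoI cells (100.2 CPM) and 325 UMIs in 32 of 147 wild-type cells (542 CPM), a log2 ratio of -2.42 (-2.98 to -1.93).

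The Gzma ratio rested on few cells. The 3 cells richest in Gzma held 82.9% of its PT I-PpoI UMIs and 52.0% of its wild-type UMIs. With every cell given the same weight the log2 ratio was -1.38, without the cells that carried Mki67 or Top2a it was -1.34, and with each cell thinned to 1000 UMIs it was -0.71. At that equal depth, in 1 random draw, Gzma was read in 12% of PT I-PpoI and 15% of wild-type CD8 T cells. Unthinned, it was read in 7 of 50 and 32 of 147 cells. The shares of cells thus lay closer together than the summed counts. Gzmb at equal depth was read in 28.0% (16.2 to 42.5) of PT I-PpoI and 12.2% (7.42 to 18.7) of wild-type cells, and at least 1 of Gzma, Gzmb and Gzmk in 48.0% (33.7 to 62.6) and 31.3% (23.9 to 39.5). Thinned to 2000 UMIs, the shares with a granzyme were 44.9% (30.7 to 59.8) in PT I-PpoI cells and 42.1% (33.3 to 51.2) in wild-type cells. The gap seen at 1000 UMIs was not kept in this other random draw, and effects of depth and of the draw cannot be told apart. In nephron cells, which should lack these genes, the 3 granzymes were read in 0.0454% and 0.0453% of cells thinned to 1000 UMIs. Their full median depths were 14678 and 6775 UMIs. Unthinned, a granzyme was read in 34 of 50 and 70 of 147 CD8 T cells.

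Nkg7, a granule membrane protein needed for degranulation, was at 1543 CPM in PT I-PpoI and 1200 CPM in wild-type CD8 T cells (log2 0.36, 0.20 to 0.53), and was read at equal depth in 74.0% and 67.3% of cells. Prf1, the pore-forming perforin, was at 63.0 CPM and 45.1 CPM (log2 0.49, -0.40 to 1.35), and was read at equal depth in 14.0% (5.82 to 26.7) and 6.12% (2.84 to 11.3) of cells, with overlapping intervals and 0 of 2204 and 0 of 4414 nephron cells. The factors that drive the effector programme had lower values: Eomes had 6 UMIs in PT I-PpoI cells and 28 in wild-type cells (log2 -1.35, -3.01 to -0.14), and Tbx21, encoding T-bet, had 7 and 26 (log2 -1.04, -2.56 to 0.13). With so few UMIs these are weak readings, and the Eomes ratio reversed to 0.64 when cells were thinned to 1000 UMIs.

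Among secreted factors, interferon gamma was higher and Ccl5 lower in PT I-PpoI CD8 T cells. Ifng, at chr10:118441046-118445892 on the plus strand, had 181 UMIs in 31 of 50 PT I-PpoI cells (518 CPM) and 86 UMIs in 44 of 147 wild-type cells (144 CPM), a log2 ratio of 1.85 (1.47 to 2.24) that was 1.66 (1.23 to 2.12) without mixed cells. It was lower without cells of over 12000 UMIs (1.27) and after thinning to 1000 UMIs (0.89). In 1 random draw at that depth Ifng was read in 28.0% (16.2 to 42.5) of PT I-PpoI and 19.1% (13.1 to 26.3) of wild-type cells. These intervals overlapped, and it was read in 0% and 0.0227% of nephron cells. How far these shares vary between draws was not tested. Thinned to 2000 UMIs instead, which leaves out 1 PT I-PpoI and 21 wild-type cells, it was read in 46.9% (32.5 to 61.7) and 19.8% (13.3 to 27.9). Ifng and Gzmb were read in the same cell in 17 of 50 and 13 of 147 CD8 T cells. Ccl5, the T cell chemokine RANTES and the most abundant of these transcripts, was at 5993 CPM in PT I-PpoI and 9776 CPM in wild-type cells (log2 -0.71, -0.78 to -0.63), although it was read at equal depth in 84.0% and 83.7% of them. Ccl3, an inflammatory chemokine, was at 192 CPM and 86.8 CPM (log2 1.14, 0.60 to 1.69), while its neighbour Ccl4 was at 1111 CPM and 1157 CPM (log2 -0.06, -0.24 to 0.12). Of 13 cytokine and chemokine genes measured, 6 had higher and 7 lower values, with a median of -0.06 that was 0.34 with more exclusion genes.

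**Figure D3:**
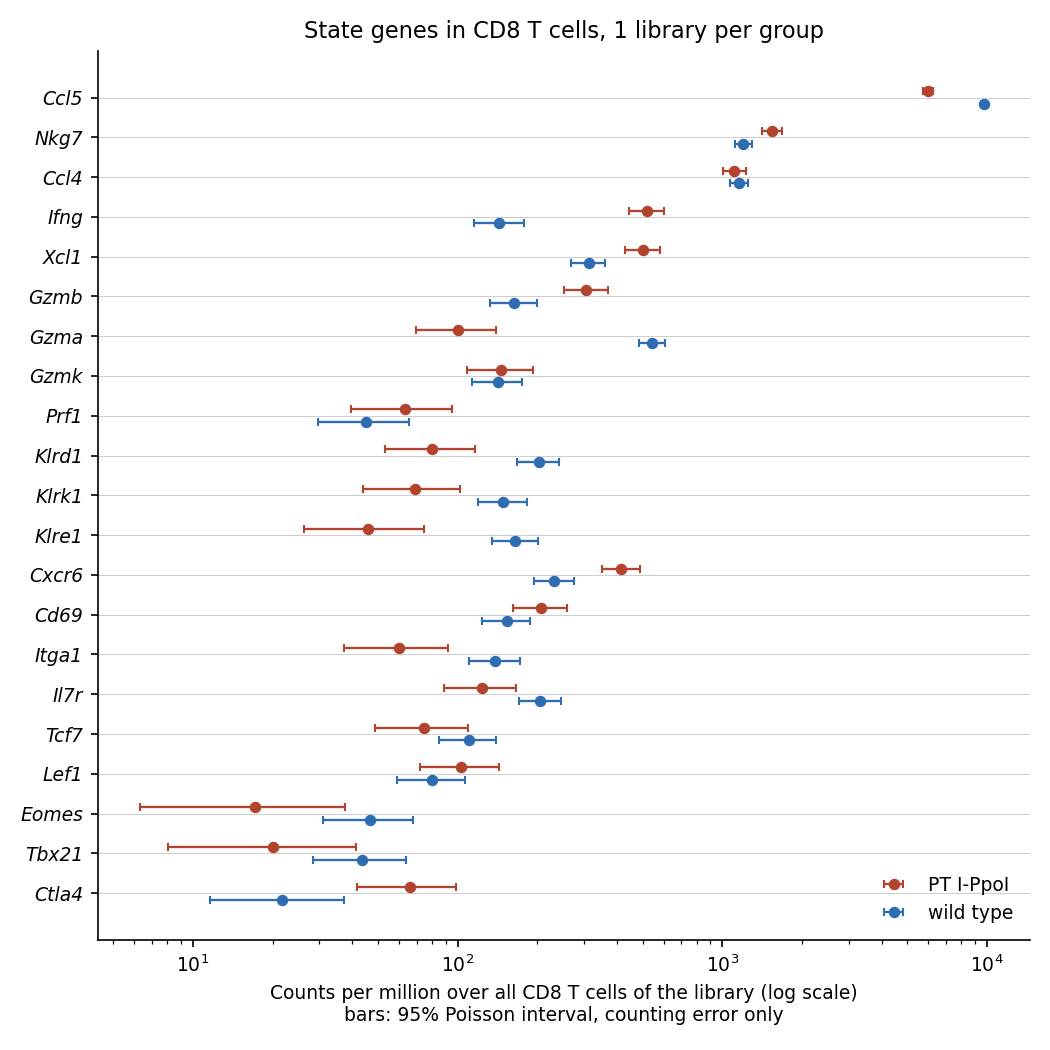
CPM (log scale) of 21 state genes summed over the CD8 T cells of each library, PT I-PpoI above wild type within each gene; bars are 95% Poisson intervals. Ifng (518 and 144 CPM) and Gzma (100.2 and 542 CPM) lie furthest apart in opposite directions, while Ccl4 and Gzmk nearly coincide.

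NK-type receptors on the CD8 T cells had lower values in PT I-PpoI. Of 10 measured, 8 had lower values, 6 of them 2-fold or more, and none was 2-fold higher, and the list median was -1.11 (-1.81 to 0.09), or -1.27 without mixed cells. Klrd1, encoding CD94, had 28 UMIs in 16 of 50 PT I-PpoI cells (80.1 CPM) and 121 UMIs in 65 of 147 wild-type cells (202 CPM), a log2 ratio of -1.31 (-1.98 to -0.73). Klre1 had 16 UMIs in 5 cells and 99 UMIs in 41 cells (log2 -1.81, -2.71 to -1.08), and Klrk1, encoding the stress ligand receptor NKG2D, was at 68.7 CPM and 148.5 CPM (log2 -1.09, -1.83 to -0.45). These 3 genes are neighbours in the NK gene complex of chromosome 6, Klrd1 at chr6:129591782-129598775. At equal depth Klrd1 was read in 12% (4.53 to 24.3) of PT I-PpoI and 25.2% (18.4 to 33.0) of wild-type CD8 T cells, with overlapping intervals, and in 0 of 2204 and 0 of 4414 nephron cells, which allows up to 0.136% and 0.0680%. Without mixed cells the log2 ratios were -1.64 for Klrd1, -1.97 for Klre1 and -1.27 for Klrk1.

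Markers of NK cells themselves were scarce in these barcodes. The 10 NK markers summed to 82 UMIs (235 CPM) in PT I-PpoI and 426 UMIs (711 CPM) in wild-type CD8 T cells, of which Gzma gave 35 and 325. Tyrobp, the NK adaptor DAP12, had 0 and 8 UMIs, and Klrb1c, encoding NK1.1, had 1 and 4. Fcer1g, an adaptor of NK cells and of some innate-like T cells, had 3 UMIs and 26 UMIs, 12 of the 26 in 1 cell. The gamma-delta genes Trdc, Tcrg-C1, Tcrg-C2 and Tcrg-C4 were read at equal depth in 6.0% and 6.80% of cells, and without the cells carrying them the log2 ratio of Klrd1 was -1.31 and that of Klre1 -2.29.

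At least 1 of the residency genes Itga1, Itgae and Cxcr6 was read at equal depth in 38.0% of PT I-PpoI and 34.7% of wild-type CD8 T cells, and in 12.8% and 6.53% of nephron cells. Cxcr6, a chemokine receptor of resident T cells, was at 415 CPM in PT I-PpoI and 232 CPM in wild-type CD8 T cells (log2 0.84, 0.49 to 1.18) and was read at equal depth in 34.0% and 25.2% of cells, against 0 of 2204 and 3 of 4414 nephron cells. Itga1, the collagen-binding integrin CD49a, was at 60.1 CPM and 138.5 CPM (log2 -1.18, -1.97 to -0.50), but nephron cells carry it as well, in 12.3% and 6.34% of cells at equal depth against 4.0% and 14.3% of CD8 T cells, so the PT I-PpoI share is at or below that of the comparator. Itgae, encoding CD103, had only 2 UMIs in each library. Of 18 resident memory genes measured, 13 had higher and 5 lower values (median 0.48, -0.09 to 0.81), and the median was 0.23 without mixed cells and 0.27 with Scrublet doublets removed.

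Naive and central memory genes lay near 0 as a list (15 measured, 8 higher and 7 lower, median 0.06, or -0.11 with TMM scaling, which lowers every log2 ratio by 0.17). Il7r, the survival receptor of resting and memory T cells, was lower, at 123 CPM and 205 CPM (log2 -0.73, -1.27 to -0.23), and Tcf7, the factor of self-renewing T cells, was at 74.4 CPM and 110 CPM (log2 -0.55, -1.28 to 0.11).

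Inhibitory receptors were rare. Pdcd1, encoding PD-1, had 9 UMIs in PT I-PpoI cells and 7 in wild-type cells, Lag3 and Havcr2 had 2 and 3 UMIs each, and Tigit had none in 0 of 50 and 0 of 147 cells, which allows shares of up to 6.0% and 2.04%. Foxp3, the regulatory T cell factor, was likewise at 0 in both. At equal depth 4.0% and 5.44% of cells carried any of 5 inhibitory receptor genes. Of 13 measured genes of the wider checkpoint list, 10 had higher and 3 had lower values (median 1.05, -0.07 to 1.58). None was 2-fold or more lower and 7 were 2-fold or more higher, among them Batf at 17 and 10 UMIs and Ctla4 at 23 and 13 UMIs. The list median was 0.56 without mixed cells and -0.27 after thinning to 1000 UMIs.

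Cell cycle genes had higher values in PT I-PpoI, carried by few cells. Of 32 measured, 31 had higher values, 21 of them 2-fold or more, and the list median was 1.24 (0.91 to 1.41), the largest positive median among the T cell state lists except that of the CD4 and regulatory T cell list (1.39 over 6 genes). Stmn1, a microtubule regulator of dividing cells, had 144 UMIs in 12 of 50 PT I-PpoI cells and 61 UMIs in 8 of 147 wild-type cells (log2 2.01, 1.58 to 2.47). Cdk1, the mitotic kinase, had 15 and 4 UMIs (log2 2.56, 1.03 to 4.73), and Mcm5, a subunit of the replicative helicase, had 20 and 8 (log2 2.05, 0.85 to 3.49). The 3 richest cells held 50.5% of the 1707 cell cycle UMIs in PT I-PpoI and 43.7% of the 1506 in wild type. Mki67 or Top2a was read in 12 of 50 and 15 of 147 cells, and at equal depth in 12% (4.53 to 24.3) and 4.08% (1.51 to 8.67), with 0.590% and 0.204% in nephron cells. The list median was 1.05 without mixed cells and 0.42 without cells of over 12000 UMIs, which are 8 in each library. In CD8-negative T cells it was 1.50 (0.74 to 1.83), so the higher values were not particular to CD8 T cells.

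Several other programmes lay above the all-gene median of 0.13. Cytoskeleton genes had higher values in 22 of 24 (median 0.86, 0.54 to 1.02, and 0.67 without mixed cells): Capg, an actin-capping protein, had 44 UMIs in 12 of 50 PT I-PpoI cells and 5 UMIs in 4 of 147 wild-type cells (log2 3.79, 2.58 to 5.61), and S100a4, a calcium-binding protein of memory T cells, was at 1208 CPM and 312 CPM (log2 1.95, 1.70 to 2.21). Glycolysis genes had higher values in 12 of 14 (median 0.52), 1 of them 2-fold or more, and without mixed cells in 12 of 13 (median 0.86), 5 of them 2-fold or more. Immediate early genes had higher values in 20 of 26 (median 0.52, and 0.53 without mixed cells), including Nr4a1, a reporter of T cell receptor signalling, at 26 and 12 UMIs (log2 1.86, 0.86 to 3.01). Interferon response genes had higher values in 34 of 43 (median 0.47, 0.31 to 0.57), led by Ifi27l2a at 993 CPM and 244 CPM (log2 2.02, 1.74 to 2.32), and MHC class I genes in 20 of 23 (median 0.48, 0.32 to 0.65), with the peptide transporter Tap2 at 112 CPM and 40.1 CPM. These last medians were smaller without mixed cells, at 0.16 for interferon and 0.20 for MHC class I, close to the all-gene median of 0.12 there. CD8-negative T cells had medians above their all-gene median of 0.05 for the same lists. They were 0.75 for cytoskeleton, 0.63 for glycolysis, 0.545 for immediate early, 0.23 for interferon response and 0.44 for MHC class I genes.

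Genes of the DNA damage response had mixed values in the CD8 T cells. Of 16 p53 targets measured, 11 had higher and 5 lower values (median 0.29, -0.66 to 0.84, and -0.036 with more exclusion genes), with 3 higher and 1 lower by 2-fold or more. Aen, a p53-induced nuclease, had 11 and 8 UMIs, and Bax, the apoptosis effector, was at 160 CPM and 119 CPM (log2 0.44, -0.10 to 0.96). Without mixed cells 9 targets could be measured, with a median of 0.32. Oxidative phosphorylation genes had a median of 0.08 (22 genes, none 2-fold different), which was -0.093 with TMM scaling and 0.41 without mixed cells. Lars2, the mitochondrial leucyl-tRNA synthetase, was lower, at 1199 CPM and 2647 CPM (log2 -1.14, -1.30 to -0.99), and was lower in CD8-negative T cells too (-1.38), while in nephron cells it was at 2177 CPM and 2279 CPM (log2 -0.07, -0.08 to -0.05).

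**Figure D4:**
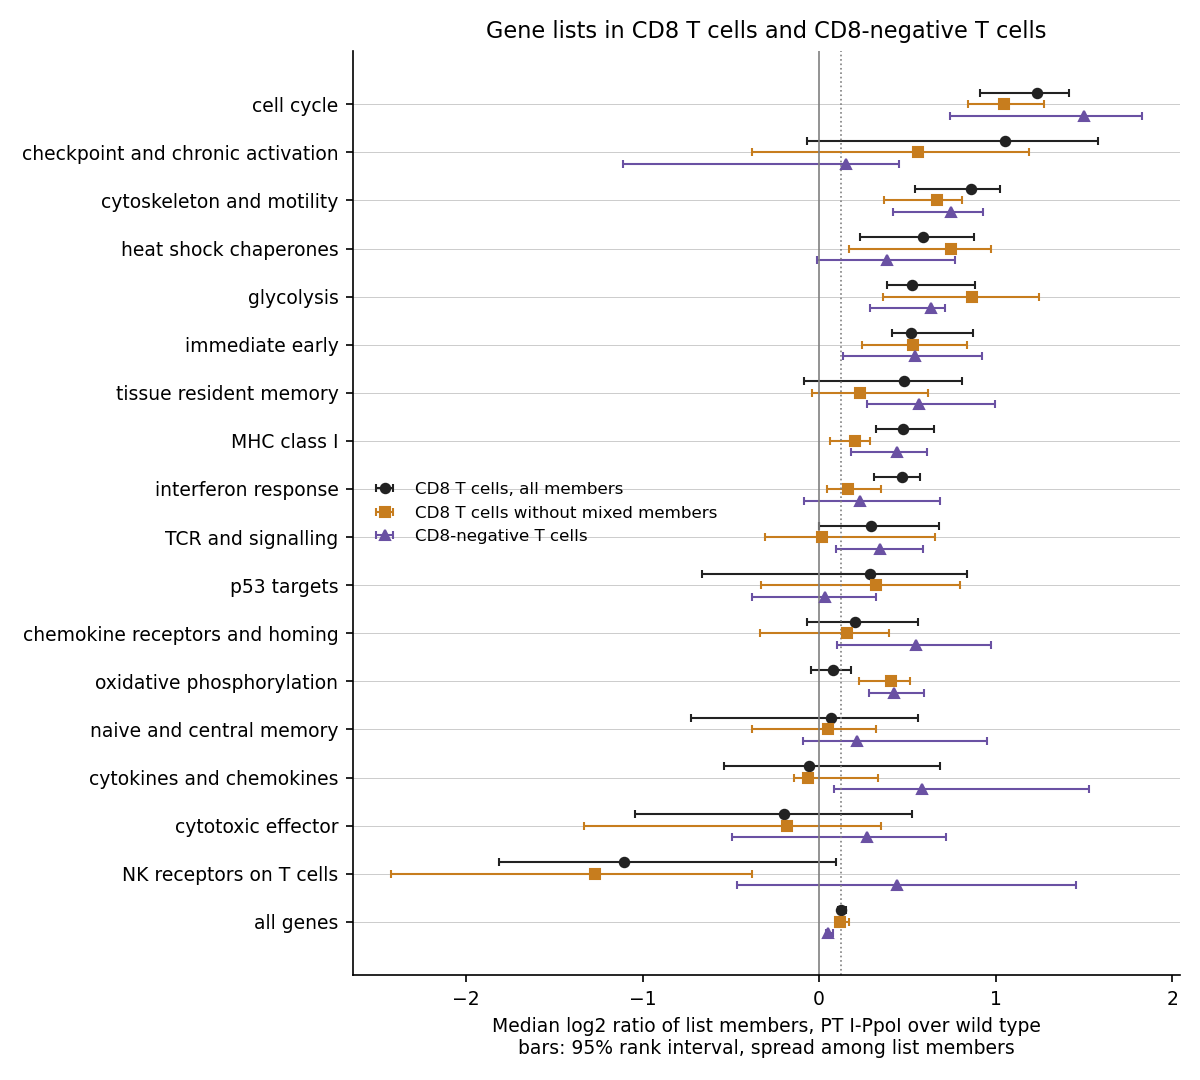
Median log2 ratio of PT I-PpoI over wild type for 17 gene lists and all genes, in all CD8 T cells, in CD8 T cells without mixed cells and in CD8-negative T cells; bars are 95% rank intervals over genes and the dotted line is the all-gene median of 0.13. Among the lists drawn, cell cycle (1.24) lies at the top and NK receptors (-1.11) at the bottom for CD8 T cells, and NK receptors are at 0.44 in CD8-negative T cells.

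Set against CD8-negative T cells of the same library (78 PT I-PpoI and 274 wild-type cells, median 4206 and 2530 UMIs), CD8 T cells had a cytotoxic profile in both. Of 4690 genes compared, 30 (0.64%) were 2-fold or more higher in CD8 T cells in both libraries and 48 (1.02%) were lower in both. Gzmk was higher in CD8 T cells by a log2 ratio of 3.34 within PT I-PpoI and 1.93 within wild type, and Gzma by 2.11 and 3.69. Ccl5 was higher by 2.19 and 2.31, Gzmb by 2.08 and 2.24, Cd160, an inhibitory receptor of cytotoxic lymphocytes, by 2.73 and 2.55, and Ccl4 by 1.81 and 2.84. Cd40lg, the helper ligand of CD4 T cells, was lower in CD8 T cells by -4.83 and -3.17, and Rgs2, a regulator of G protein signalling, by -1.79 and -1.89. Ifng did not clearly separate the classes in the random draw at equal depth. It was read there in 28.0% of CD8 and 29.5% of CD8-negative T cells in PT I-PpoI, and in 19.1% and 15.3% in wild type. Its PT I-PpoI over wild-type log2 ratio was 1.53 in CD8-negative T cells, while that of Gzma was -0.84, that of Klrd1 -0.37 and that of Klrk1 0.20.

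**Figure D5:**
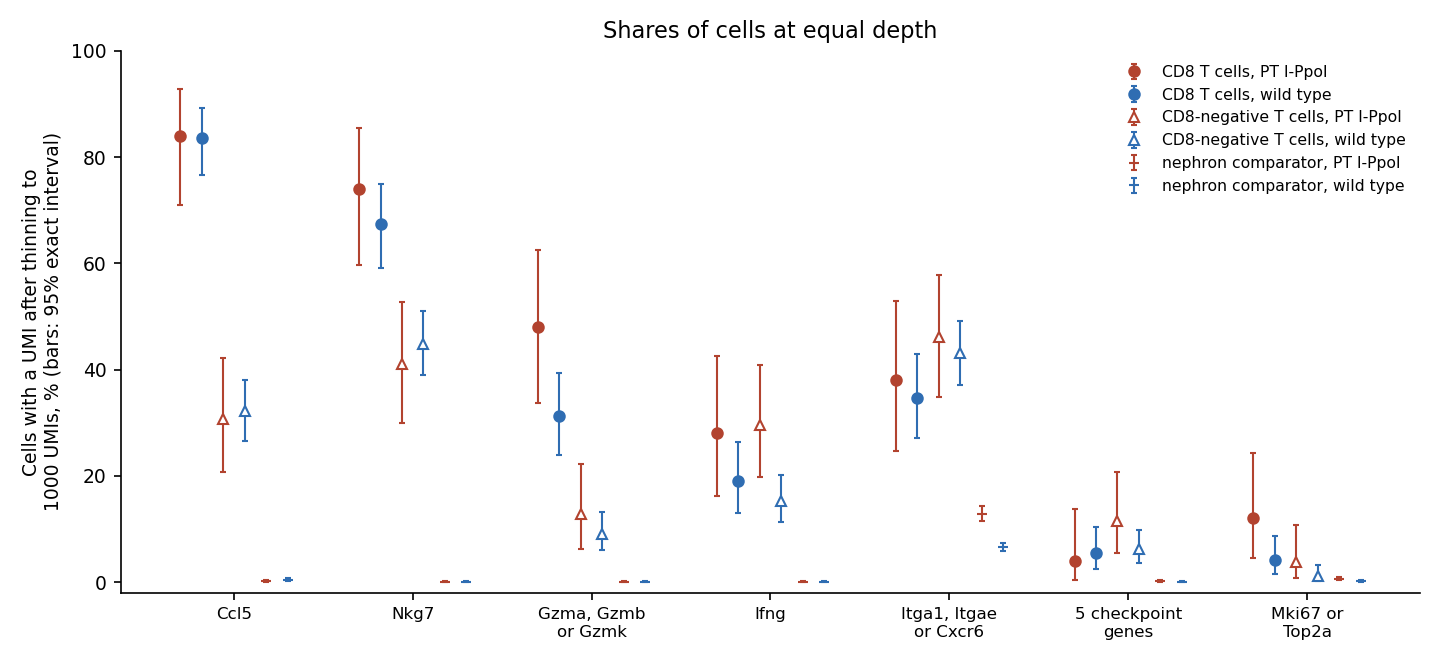
Percent of cells with a UMI of each gene or gene set after every cell was thinned to 1000 UMIs, for CD8 T cells, CD8-negative T cells and nephron cells, PT I-PpoI left of wild type; bars are 95% exact intervals. Ccl5 (84.0% and 83.7%) is alike in both CD8 groups, the granzyme set is at 48.0% and 31.3%, and the nephron cells lie near 0 except for the residency set (12.8% and 6.53%).

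Genes of the T cell receptor complex and its signalling had higher values in 16 of 22 (median 0.29), and the median was 0.02 without mixed cells. Cd5, a brake on receptor signalling whose level follows signal strength, had 40 UMIs in 24 of 50 PT I-PpoI CD8 T cells and 17 UMIs in 15 of 147 wild-type ones (log2 1.99, 1.16 to 2.92). Trbc1 and Trbc2 are near-identical beta constant genes whose reads cannot be divided with certainty, and their sum was at 2470 CPM and 1482 CPM (log2 0.74, 0.60 to 0.87, and 0.44 without mixed cells).

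T cell receptor V segments were read in few cells of these 3-prime libraries, so they describe variety and not clones. A Trbv segment was read in 12 of 50 PT I-PpoI cells (24%) and 16 of 147 wild-type cells (10.9%), spread over 7 of 35 listed segments in each library. The most frequent was Trbv19 in 4 PT I-PpoI cells and Trbv29 in 6 wild-type cells. A Trav segment was read in 5 cells (10.0%) and 24 cells (16.3%), led by Trav16n in 2 and Trav8d-2 in 8.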

How the data were processed

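Kidney cortex cells of 1 PT I-PpoI and 1 wild-type library were profiled with a droplet 3-prime kit, per the labels' protocols. The authors deposited raw UMI counts per gene and barcode for each library. The submitters' processing notes name Cell Ranger 3.1, Seurat 3 and mm10, while per the file headers the matrices came from Cell Ranger 4, and strand use in counting is not given in the sources used here. The PT I-PpoI library held 93257620 UMIs and the wild-type library 107977310. The members and gene lists were chosen with earlier results of these data known.

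Counts of the CD8 T cells were summed per library with Python 3.11.15, numpy 2.4.6, scipy 1.17.1 and pandas 2.3.3, and divided to CPM. Log2 ratios used a prior of 0.5 counts, and their intervals are exact conditional binomial ones. Intervals of shares are Clopper-Pearson, and list medians have binomial rank intervals over genes. Where a gene was read in 0 cells, the share said to be allowed is 3 divided by the number of cells, not a Clopper-Pearson limit. The rank intervals describe the spread among the genes of a list, and all other intervals cover counting error only. The ratio and interval steps were tested on simulated data. Equal-depth shares came from thinning each cell at random to 1000 UMIs, which left out no cell. Each thinned value rests on 1 random draw, and how far it varies between draws was not tested. The nephron comparator was kept barcodes with 10 or more UMIs of Slc34a1, Lrp2, Umod and Slc12a1 and none of Ptprc. CD8-negative T cells met the same CD3 rule with no Cd8 UMI and none of Ncr1, Cd79a and C1qa; Cd4 was not used there. Doublets were called with Scrublet (scanpy 1.11.5) and removed only in an alternative, as were TMM factors (edgeR 4.0.16 on R 4.3.3), used for scaling and not for a test. Genes were named by rule: 12 in each direction at 100 CPM and 20 UMIs after free RNA subtraction, up to 6 per list furthest from 0, 8 in each direction against CD8-negative T cells, and a set of state genes. Tyrobp, Klrb1c and the set of 12 without mixed cells were added after seeing values. Gene coordinates are GENCODE on mm10 and promoters RefSeq GRCm38.p6.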

Additional observations from a re-analysis of the deposited data

Results flagged for a closer look

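For 8 genes the PT I-PpoI over wild-type log2 ratio had opposite signs in CD8 T cells and in CD8-negative T cells, with intervals on either side of 0, and in each case the difference between the classes was not tested. Aqp1, a water channel of tubule and vessel, was at 4.41 in CD8 T cells and -5.49 in CD8-negative T cells, with 76 of its 142 PT I-PpoI UMIs in 1 cell. Cdh5, the endothelial cadherin, was at 1.64 and -5.38, Sox17, an endothelial factor, at 3.34 and -2.19, and Fabp5 at 3.63 and -1.09, with 143 of its 162 PT I-PpoI UMIs in 1 cell. Hspb1, a small heat shock protein also made by vessel cells, was at 1.05 and -1.67, with 56 of its 93 UMIs in 1 cell. Rflnb, an actin crosslinking regulator, was at 1.30 and -1.05, with 22 of its 29 UMIs in 1 cell. Fcer1g was at -2.14 in CD8 T cells, from 3 and 26 UMIs, and 1.46 in CD8-negative T cells. Rgs1, a regulator of chemokine receptor signalling in resident T cells, was at 0.81 in CD8 T cells, with 564 CPM in PT I-PpoI and 322 CPM in wild type, and at -0.38 in CD8-negative T cells.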

How the results depend on the processing

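Of the ratios of named genes over the alternatives, 1315 kept their direction and size, 151 moved and 10 reversed, and 30 of 82 genes kept theirs under every alternative. The minimum of 500 UMIs added no CD8 T cell, so it could not change any ratio, and its ratios are among those kept. Without mixed cells Aqp1 reversed to -0.63, Sox17 to -1.48, Mgp to 0.11 and Nupr1 to 0.11. With more exclusion genes Aqp1 reversed to -1.80. Without cells of over 12000 UMIs Fabp5 reversed to -0.091 and Apela to -1.17. With cells thinned to 1000 UMIs before summing, Ctla4 reversed to -0.56, Eomes to 0.64 and Apela to -0.77. The cause was not tested. Of the shares with a UMI, 71 moved and 73 did not, and the part of this due to the random thinning was not tested. Thinned to 2000 in place of 1000 UMIs, the residency set was at 63.3% in PT I-PpoI cells and 50.8% in wild-type cells, Gzmb at 34.7% and 21.4%, and Mki67 or Top2a at 14.3% and 8.73%. The CD8 share of PT I-PpoI barcodes moved to 1.34% with up to 30% mitochondrial UMIs and to 0.473% when barcodes were thinned before the rule. The wild-type share moved to 1.17% (minimum of 500 UMIs), 1.75% (up to 30% mitochondrial UMIs), 1.08% (2 or more Cd8 UMIs), 0.692% (thinned) and 1.13% (more exclusion genes). Against 383 genes higher and 398 lower, the counts were 121 and 134 at 50 or more UMIs, 2387 and 1931 for all genes with a UMI, and 114 and 87 after thinning. Without mixed cells 257 were higher and 112 lower, 69.7% of calls higher against 49.0%. Without cells of over 12000 UMIs 229 were higher (38.8%), with more exclusion genes 248, and with TMM factors, which move the median of all genes by -0.17, 241 (32%). Free RNA subtraction gave 41.2% and scaling without mitochondrial, ribosomal and epithelial genes 40.5%. List medians that moved were, for oxidative phosphorylation, 0.19 (2 or more Cd8 UMIs), -0.093 (TMM), 0.18 (without Mki67 or Top2a cells), 0.41 (without mixed cells), -0.063 (without cells of over 12000 UMIs) and 0.22 (thinned). For interferon response they were 0.27 (Scrublet doublets removed), 0.30 (TMM), 0.16 (without mixed cells) and 0.59 (without cells of over 12000 UMIs). For MHC class I they were 0.27 (Scrublet), 0.31 (equal weight per cell), 0.30 (TMM) and 0.20 (without mixed cells), and for immediate early genes 0.39 (Scrublet) and 0.35 (TMM). For the cell cycle they were 0.80 (more exclusion genes), 0.77 (without Mki67 or Top2a cells) and 0.42 (without cells of over 12000 UMIs), and for glycolysis 0.35 (TMM) and 0.29 (without cells of over 12000 UMIs). The CD4 and regulatory list moved to 1.88 without Mki67 or Top2a cells, and after thinning the checkpoint list moved to -0.27 and the cytokine receptor list to -0.70. No library could be left out, since each group has 1. No paired analysis was possible because each group has 1 library. With 349379 and 599135 UMIs over the CD8 T cells, genes of few UMIs could differ by more than 2-fold within counting error.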
